A study of Arabidopsis thaliana with 12 samples.

Results

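The genotype by time interaction asks whether the effect of the tpt-2 mutation on leaf transcripts changed between 9 h and 18 h of high light. It was measured for every nuclear gene as the difference between tpt-2 and Col-0 after 18 h minus the same difference after 9 h, on the log2(FPKM + 1) scale, where FPKM is the number of fragments per kilobase of transcript, scaled to the library's total. Of 32833 genes in the deposited table, 32548 are nuclear, and the 17470 of these whose mean over the 12 libraries reached 1 FPKM make up the set described here. At the edge of that minimum, AT5G62998 had a mean of 1.001 FPKM and AT5G23930 one of 0.9998 FPKM. Of the 15078 nuclear genes below it, 732 had a group mean of 1 FPKM or more, and 58 genes passed through 1 group alone, of which 7 were called. Col-0 is the reference accession of Arabidopsis thaliana, and tpt-2 is a mutant allele of TPT, which encodes the triose phosphate/phosphate translocator of the chloroplast envelope. Plants raised on soil under days of 10 h light went to 500 µmol photons m-2 s-1 at dawn, at an age of 21 d. Leaf RNA was then sampled in 4 groups of 3 biological replicates: Col-0 after 9 h, tpt-2 after 9 h, Col-0 after 18 h and tpt-2 after 18 h. No group from before the shift or from growth light was analysed here, a single mutant allele was used, and time in high light and time of day cannot be told apart.

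In the light, TPT passes triose phosphate from the chloroplast to the cytosol in exchange for phosphate, and sucrose is made from it. Plants without TPT are known to send more carbon into starch and to break starch down during the day, exporting maltose and glucose instead. Sugar level acts on many leaf transcripts: anthocyanin genes are known to be sugar-induced, and dormancy-associated, trehalose phosphate synthase and autophagy genes to be induced by sugar starvation. An interaction below 0 means that tpt-2 stood higher relative to Col-0 after 9 h than after 18 h, and an interaction above 0 the opposite.

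Depth was 12301478 to 14286159 assigned fragments in 11 libraries and 25682624 in Col-0 18 h replicate 1. Pearson's r over genes was 0.969 to 0.992 for 12 pairs within groups and 0.925 to 0.982 for 54 pairs between groups. TPT itself stood at 393 ± 61.0 FPKM in Col-0 after 9 h (SD, n = 3), against 3.10 ± 0.678 FPKM for tpt-2. After 18 h its levels were 436 ± 29.8 and 2.92 ± 0.206 FPKM. Its interaction was -0.21 (SE 0.18) and did not pass the test (limma, Benjamini-Hochberg adjusted p = 0.562). The summed level of 4 leaf mesophyll markers lay between 29856 and 35864 FPKM in the 12 libraries. Of 17 markers of mesophyll, guard cells, phloem, root, flower and seed, 11 reached the FPKM minimum and 0 of these 11 were called in the interaction. Of the 3 root markers, PYK10 was at 148 to 350 FPKM and SCR at 7.93 to 16.04 FPKM over the 12 libraries, while the root hair regulator RHD6 was at or near 0. The root sum was 157 to 205 FPKM in Col-0 and 181 to 282 FPKM in tpt-2 after 9 h, and 286 to 339 FPKM in Col-0 and 239 to 365 FPKM in tpt-2 after 18 h. The 3 floral markers summed to at most 0.771 FPKM in any library. The seed markers CRA1 and CRU3 summed to 10.099 FPKM in 1 Col-0 18 h library and to at most 0.0816 FPKM in each of the others. The part of these markers in the results was not tested. The share of FPKM from organelle-encoded genes was 1.49% in tpt-2 after 9 h (0.610% to 3.23%) and 0.506% after 18 h (0.352% to 0.684%), against 0.0679% and 0.0596% in Col-0. Its part in the results below was not tested beyond rescaling to nuclear genes, which gave 831 calls.

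The interaction was called (limma, Benjamini-Hochberg adjusted p under 0.05) for 840 nuclear genes, 4.81% of those tested, of which 426 (2.44%) were positive and 414 (2.37%) negative. The size of the interaction among these calls ranged from 0.31 to 3.04 on the log2 scale with a median of 0.69, and 192 reached a 2-fold difference, 70 positive and 122 negative. Without adjustment, p was under 0.05 for 3773 genes. In whole leaves, fewer cells of a type and less RNA per cell cannot be told apart. At the edge of the call, AT5G63570 had an adjusted p of 0.0498 and AT5G11480 one of 0.0501. The median interaction of all 17470 genes was 0.03. Under quantile normalization there were 779 calls, 314 positive and 465 negative, so the balance of directions rests on the scaling. The count also rests on single libraries. It was 254 without Col-0 18 h replicate 2, 290 without Col-0 18 h replicate 1, 516 without Col-0 18 h replicate 3, 281 without tpt-2 18 h replicate 1, 489 without tpt-2 18 h replicate 2, 532 without Col-0 9 h replicate 2, 467 without tpt-2 9 h replicate 1 and 297 without tpt-2 9 h replicate 2. It stayed within 1.5 times of 840 without any other single library, and 217 of the 840 genes were called in each of the 12 fits that left out 1 library.

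**Figure D1:**
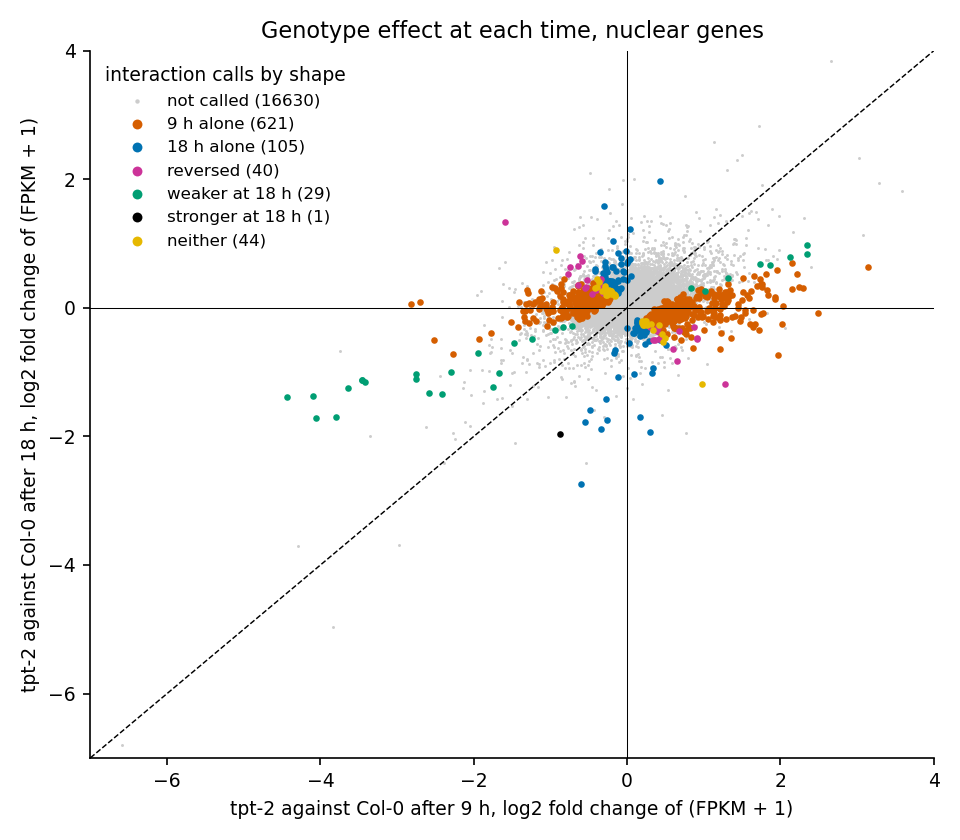
Genotype effect (tpt-2 minus Col-0, log2 of FPKM + 1) after 9 h on the x axis and after 18 h on the y axis for 17470 nuclear genes, with interaction calls coloured by shape and the dashed line marking equal effects. Most calls, 621 of 840, lie along the horizontal axis, with an effect called after 9 h alone.

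Each call was sorted by whether the genotype effect passed the test at each time, with the p-values of both times adjusted together. By that adjustment the effect was called for 3184 nuclear genes after 9 h (18.23%) and 1118 after 18 h (6.4%). The largest class had an effect after 9 h alone, with 621 genes, 324 higher and 297 lower in tpt-2. In 105 genes the effect was called after 18 h alone, 61 higher and 44 lower. In 40 genes the effect was called at both times with opposite signs, 19 from higher to lower and 21 from lower to higher. In 29 genes it kept its sign and was smaller on the log2 scale after 18 h, 8 higher and 21 lower. In 1 gene it kept its sign and was larger. The remaining 44 calls passed at neither time alone. The classes moved with single libraries: over the 12 fits that left out 1 library, the 9 h alone class ranged from 206 (without Col-0 18 h replicate 2) to 791 (without tpt-2 18 h replicate 3), and the 18 h alone class from 21 to 196 without the same libraries. The reversed class ranged from 12 (without tpt-2 9 h replicate 2) to 70 (without tpt-2 18 h replicate 3). The class that was smaller after 18 h ranged from 10 (without Col-0 18 h replicate 2) to 47 (without tpt-2 9 h replicate 3). Sorting by size in place of p-values, with an effect of at least 1 at one time and under 0.5 at the other, left 121 genes with an effect after 9 h alone and 13 after 18 h alone.

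The change from 9 h to 18 h was called in Col-0 for 4923 nuclear genes (28.2%) and in tpt-2 for 4224 (24.2%). Among the 840 interaction calls, 337 changed with time in Col-0 alone, 288 in tpt-2 alone, 210 in both and 5 in neither. For the 324 genes that were higher in tpt-2 after 9 h alone, 176 fell in tpt-2 between the times and 190 rose in Col-0. For the 297 genes that were lower in tpt-2 after 9 h alone, 156 rose in tpt-2 and 164 fell in Col-0. The loss of the 9 h difference came with a change in tpt-2 in some genes and in Col-0 in others.

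**Figure D2:**
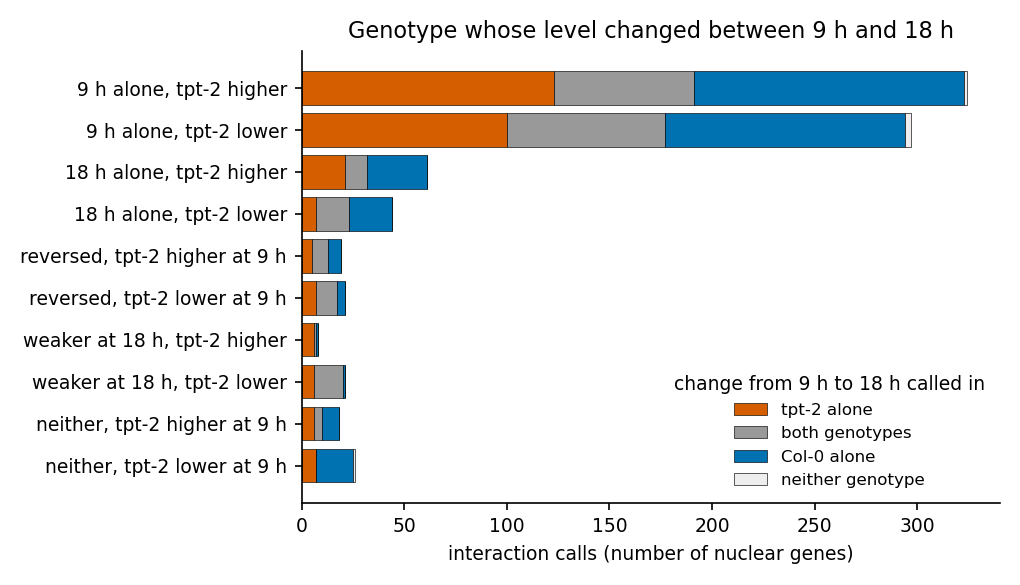
Number of nuclear interaction calls on the x axis for each shape and direction on the y axis, divided by the genotype in which the change from 9 h to 18 h was called. In the 9 h alone class, 223 genes changed in tpt-2 alone, 249 in Col-0 alone and 145 in both.

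Genes higher in tpt-2 after 9 h alone were led by AT5G56100, AT1G23390, DRMH1, AT5G24490 and AT5G02160. DRMH1 (AT2G33830) is a dormancy/auxin-associated gene of the sugar starvation list, AT1G23390 encodes a kelch F-box protein known to direct chalcone synthase to degradation, and RefSeq describes AT5G56100 as a glycine-rich protein/oleosin and AT5G24490 as a 30S ribosomal protein. Promoters of 4 of these genes are shown because a short motif recurred in this class. It was chosen after the shares of 5 motifs in 8 sets of promoters were seen. In some sets of 19 to 21 promoters the G-box and the evening element also had higher shares than in all promoters, given with those sets. The AC element was in 1 of 19 (5.26%) and 1 of 21 (4.76%) promoters of the same sets, against 1.43% of all. In the 21 reversed genes that went from lower to higher, the G-box and the evening element were each in 1 promoter (4.76%). The motif chosen is the TATCCA element, known from sugar-responsive alpha-amylase promoters of rice, searched as TATCCA on both strands from 250 bases before to 50 bases after the annotated start. It was found in 121 of the 324 promoters of this class (37.4%), in 40 of the 297 of genes lower in tpt-2 after 9 h alone (13.5%) and in 2897 of all 17470 promoters (16.6%). Genes that were called higher in tpt-2 after 9 h without an interaction call held it in 385 of 1520 promoters (25.3%). Of the 93 genes of this class called in each of the 12 fits that left out 1 library, 37 held it (39.8%). Of the 66 genes lower in tpt-2 after 9 h alone that were called in each of these fits, 13 held it (19.7%). Of genes with an effect after 18 h alone, 9 of 61 higher in tpt-2 (14.75%) and 11 of 44 lower in tpt-2 (25%) held it. The sets without an interaction call and with calls in all 12 fits were added after the other shares were seen. These shares are a description, with no test, and a match to these letters is not a bound site. The 250 bases before the start are given 5′ to 3′ on the gene's strand from the TAIR10.1 RefSeq assembly, in lower case with TATCCA or its reverse complement in capitals.
AT5G56100 (chr5:22716667-22716916, plus strand): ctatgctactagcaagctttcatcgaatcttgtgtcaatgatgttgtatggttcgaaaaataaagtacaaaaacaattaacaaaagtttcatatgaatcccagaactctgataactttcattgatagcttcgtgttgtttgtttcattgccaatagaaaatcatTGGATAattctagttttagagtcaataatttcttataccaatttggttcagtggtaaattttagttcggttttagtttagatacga
DRMH1 (chr2:14310609-14310858, minus strand): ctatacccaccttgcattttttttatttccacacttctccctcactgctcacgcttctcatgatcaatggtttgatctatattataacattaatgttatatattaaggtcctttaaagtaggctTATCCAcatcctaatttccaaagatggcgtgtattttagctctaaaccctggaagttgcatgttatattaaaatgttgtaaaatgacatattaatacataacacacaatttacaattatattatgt
AT5G24490 (chr5:8365351-8365600, plus strand): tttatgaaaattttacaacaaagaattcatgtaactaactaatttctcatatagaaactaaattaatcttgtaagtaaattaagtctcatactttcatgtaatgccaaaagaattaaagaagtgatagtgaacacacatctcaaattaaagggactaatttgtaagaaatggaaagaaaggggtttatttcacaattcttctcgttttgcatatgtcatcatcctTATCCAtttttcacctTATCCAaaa
AT5G02160 (chr5:425976-426225, plus strand): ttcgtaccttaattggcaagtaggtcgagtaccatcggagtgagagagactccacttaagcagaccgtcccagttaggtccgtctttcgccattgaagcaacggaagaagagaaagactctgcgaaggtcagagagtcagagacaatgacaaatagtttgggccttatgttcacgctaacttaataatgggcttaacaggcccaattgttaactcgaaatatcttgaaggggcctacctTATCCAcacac
The first base of the motif stood 86 bases before and 44 bases after the start in AT5G56100, and 126 bases before it in DRMH1. AT5G24490 held it at 25 and 9 bases before the start, and AT5G02160 at 11 bases before and 42 bases after it. Matches after the start lie outside the bases shown. The promoter window of AT1G23390 held no match.

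After 9 h, AT5G56100 (chromosome 5, 22716917 to 22717849, plus strand) was at 3.27, 1.21 and 2.01 FPKM in Col-0 and 10.4, 10.95 and 11.7 FPKM in tpt-2. At 18 h it stood at 1.75, 3.64 and 3.63 FPKM in Col-0 and 0.698, 1.67 and 1.83 FPKM in tpt-2. The groups were apart after 9 h and overlapped after 18 h, and the interaction was -2.71 (SE 0.38, limma adjusted p = 0.00458). Its lowest library held 8 fragments. The F-box gene AT1G23390 (chromosome 1, 8308965 to 8310916, minus strand) was at 4.93, 4.94 and 5.70 FPKM in Col-0 and 37.2, 42.0 and 24.2 FPKM in tpt-2 after 9 h. After 18 h its values were 5.33, 4.65 and 4.59 FPKM in Col-0 and 3.09, 7.06 and 4.07 FPKM in tpt-2. The 3 tpt-2 libraries at 9 h stood above the other 9 libraries, with an interaction of -2.57 (SE 0.33, limma adjusted p = 0.00287). Between the times it fell in tpt-2 by 2.65 on the log2 scale (adjusted p = 9.51e-06), while its change in Col-0 was -0.08 (adjusted p = 0.843).

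AT5G24490 was at 64.8, 25.8 and 56.6 FPKM in Col-0 and 198, 216 and 156 FPKM in tpt-2 after 9 h. At 18 h the values were 68.4, 69.5 and 64.7 FPKM in Col-0 and 46.2, 56.4 and 69.3 FPKM in tpt-2. The tpt-2 libraries at 9 h were the high ones, and the interaction was -2.27 (SE 0.38, limma adjusted p = 0.0101). AT5G02160, uncharacterized in RefSeq, had 156, 77.9 and 121 FPKM in Col-0 and 460.1, 506 and 439 FPKM in tpt-2 after 9 h, then 135, 136 and 121 FPKM in Col-0 and 119.5, 132 and 150.5 FPKM in tpt-2, with an interaction of -1.999 (SE 0.27, limma adjusted p = 0.00341). Both genes lay at the Col-0 level after 18 h, where the groups overlapped. DRMH1 was at 59.7, 50.6 and 29.98 FPKM in Col-0 and 409, 419 and 384 FPKM in tpt-2 after 9 h. Later, at 18 h, it was at 2.35, 3.59 and 2.33 FPKM in Col-0 and 1.82, 10.3 and 5.11 FPKM in tpt-2. Between the times, on the log2 scale, it fell by 3.63 in Col-0 and fell by 6.12 in tpt-2 (adjusted p = 4.71e-05 and 1.16e-06), and its interaction was -2.50 (SE 0.56, limma adjusted p = 0.0292). That call was lost without Col-0 18 h replicates 1, 2 and 3 (adjusted p = 0.0636, 0.08 and 0.0515), Col-0 9 h replicate 2 (adjusted p = 0.0512) or tpt-2 9 h replicates 1 and 2 (adjusted p = 0.0609 and 0.0729).

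Genes lower in tpt-2 after 9 h alone were led by AT1G80130, TBL26 and MYB75. AT1G80130 encodes a tetratricopeptide repeat protein, TBL26 belongs to a family known for adding acetyl groups to cell wall polysaccharides, and MYB75 (also PAP1) is a MYB activator of anthocyanin genes. AT1G80130 (chromosome 1, 30140912 to 30142697, minus strand) was at 17.61, 23.7 and 12.7 FPKM in Col-0 and 2.46, 1.52 and 1.08 FPKM in tpt-2 after 9 h. By 18 h the values were 21.0, 20.6 and 19.2 FPKM in Col-0 and 27.8, 24.4 and 13.7 FPKM in tpt-2. The 3 low libraries were those of tpt-2 at 9 h, and the interaction was 2.87 (SE 0.38, limma adjusted p = 0.00341). Its promoter window is shown as the first gene of this direction and held no match to the 5 motifs searched.
AT1G80130 (chr1:30142698-30142947, minus strand): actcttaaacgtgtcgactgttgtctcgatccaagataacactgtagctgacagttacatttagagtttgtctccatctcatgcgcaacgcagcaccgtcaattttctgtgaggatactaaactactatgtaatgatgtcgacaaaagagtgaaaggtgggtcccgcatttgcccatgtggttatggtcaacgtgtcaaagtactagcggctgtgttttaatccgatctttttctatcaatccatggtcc

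TBL26 had 55.6, 53.4 and 121 FPKM in Col-0 and 10.5, 8.98 and 10.9 FPKM in tpt-2 after 9 h, and 129.7, 119 and 117 FPKM in Col-0 and 170.1, 174 and 72.1 FPKM in tpt-2 after 18 h. Its Col-0 replicate 3 at 9 h and its tpt-2 replicate 3 at 18 h stood apart from the other replicates, and the interaction was 2.79 (SE 0.47, limma adjusted p = 0.0107). MYB75 had 75.0, 101 and 95.0 FPKM in Col-0 and 14.4, 18.8 and 11.9 FPKM in tpt-2 after 9 h. After 18 h it had 124, 138 and 138 FPKM in Col-0 and 115, 101 and 70.2 FPKM in tpt-2, still lower in every tpt-2 library, although that difference did not pass the test (log2 -0.51, adjusted p = 0.0994). It had an interaction of 2.02 (SE 0.26, limma adjusted p = 0.00341), and rose by 2.58 in tpt-2 and by 0.57 in Col-0 between the times (adjusted p = 2.74e-06 and 0.0434). These 3 genes kept the interaction call in each of the 12 fits with 1 library left out. The other two leading genes of this direction, AT3G16330 and AT4G07815, had interactions of 1.58 (SE 0.41, limma adjusted p = 0.0493) and 1.55 (SE 0.36, limma adjusted p = 0.032) and rested on few fragments, with 11 and 3 in their lowest libraries. AT3G16330 lost its call without Col-0 18 h replicates 1, 2 and 3 (adjusted p = 0.0816, 0.117 and 0.0898), Col-0 9 h replicates 1, 2 and 3 (adjusted p = 0.0642, 0.0865 and 0.0853), tpt-2 18 h replicates 1 and 2 (adjusted p = 0.0999 and 0.104) or tpt-2 9 h replicate 2 (adjusted p = 0.0679), and AT4G07815 without Col-0 18 h replicates 1, 2 and 3 (adjusted p = 0.0598, 0.0806 and 0.0673), Col-0 9 h replicates 1 and 2 (adjusted p = 0.0623 and 0.0689) or tpt-2 18 h replicates 1 and 2 (adjusted p = 0.0666 and 0.0698).

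**Figure D3:**
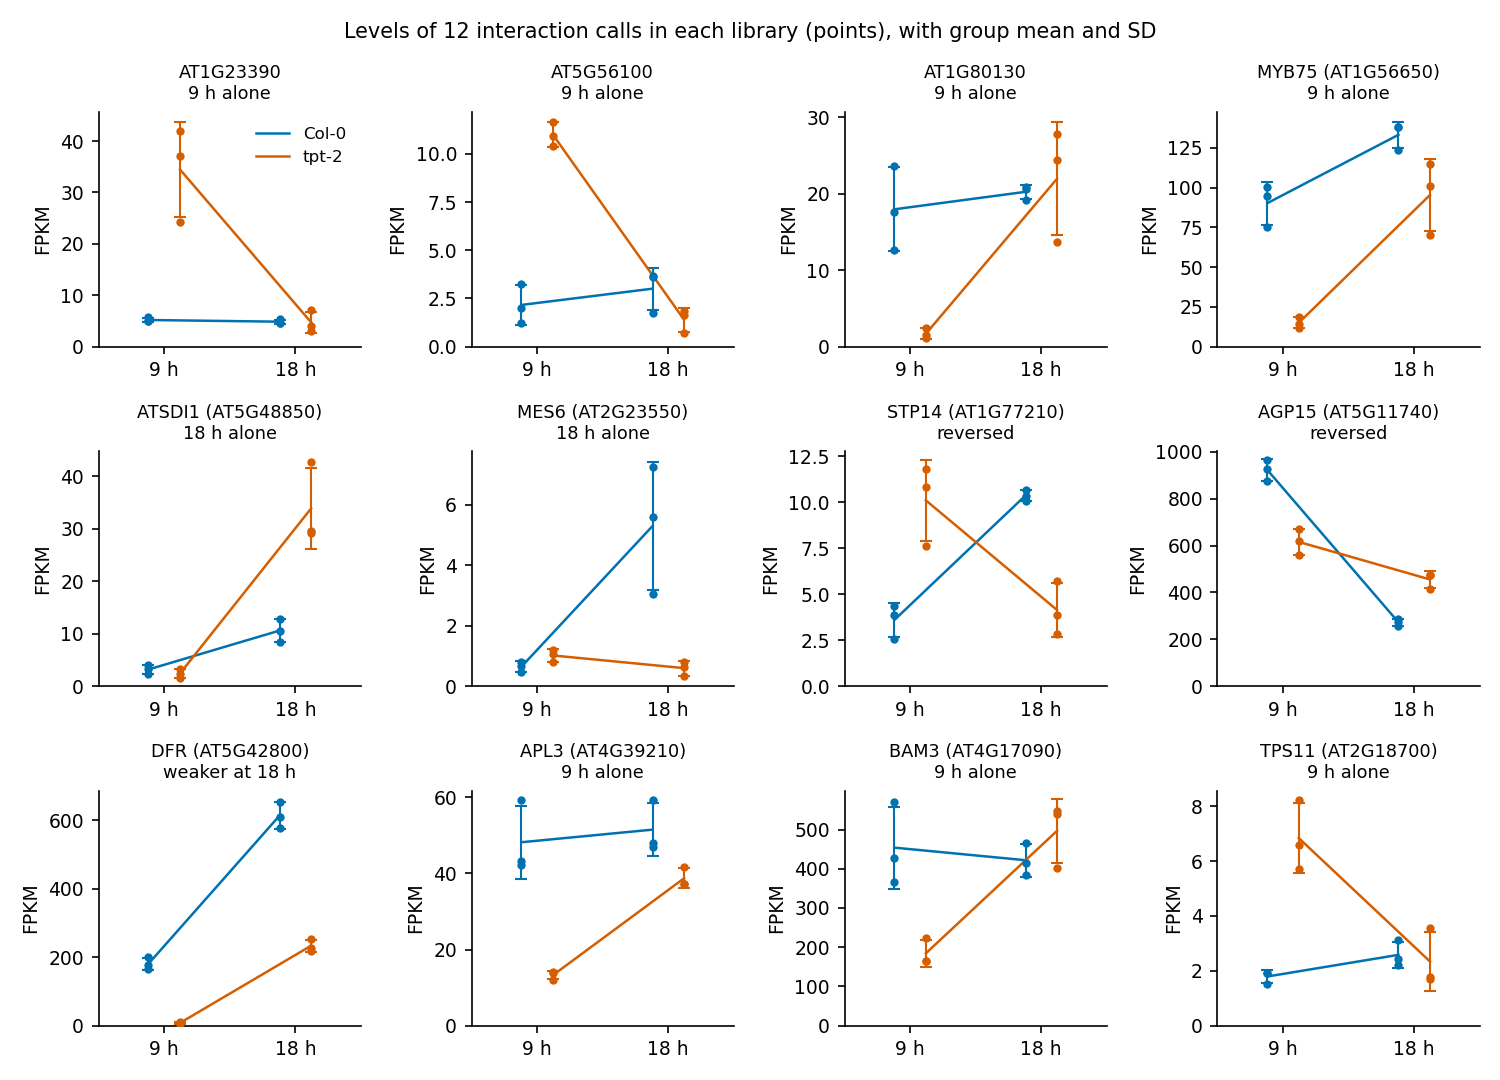
FPKM on the y axis after 9 h and 18 h on the x axis for 12 interaction calls, with points for single libraries, lines through group means and bars for the SD (n = 3). AT5G56100 was at 10.4, 10.95 and 11.7 FPKM in tpt-2 after 9 h and near Col-0 after 18 h, and the lines of STP14 and AGP15 cross.

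Genes higher in tpt-2 after 18 h alone were led by ATSDI1, a tetratricopeptide repeat gene known as induced by sulfur deficiency. ATSDI1 (chromosome 5, 19805437 to 19807853, minus strand) was at 3.22, 2.33 and 3.98 FPKM in Col-0 and 2.40, 3.29 and 1.57 FPKM in tpt-2 after 9 h. At the later time it was at 12.9, 8.39 and 10.5 FPKM in Col-0 and 42.7, 29.6 and 29.2 FPKM in tpt-2. The groups overlapped after 9 h and were apart after 18 h, with an interaction of 1.89 (SE 0.31, limma adjusted p = 0.00963). AT1G04040, an acid phosphatase gene of the HAD superfamily, had 45.6, 38.5 and 39.3 FPKM in Col-0 and 38.0, 34.0 and 36.0 FPKM in tpt-2 after 9 h, then 11.2, 10.9 and 12.3 FPKM in Col-0 and 33.1, 18.1 and 24.7 FPKM in tpt-2. It fell in both genotypes and less in tpt-2, with an interaction of 1.22 (SE 0.23, limma adjusted p = 0.0158). After 9 h it was slightly lower in every tpt-2 library, a difference that did not pass the test (log2 -0.18, limma adjusted p = 0.493). A gene on the opposite strand overlaps 22.5% of its length, and the strand setting of the counting is not given in the sources used here. Both calls were kept in each of the 12 fits with 1 library left out. AT1G22690, a gibberellin-regulated family gene, was at 43.0, 28.2 and 44.7 FPKM in Col-0 and 52.3, 52.7 and 48.9 FPKM in tpt-2 after 9 h. It was already higher in every tpt-2 library then, although that difference did not pass the test (log2 0.43, limma adjusted p = 0.266). After 18 h it was at 19.6, 12.1 and 10.3 FPKM in Col-0 against 52.5, 44.2 and 74.8 FPKM in tpt-2. Its interaction was 1.54 (SE 0.34, limma adjusted p = 0.0276), a call lost without Col-0 18 h replicates 2 and 3 (adjusted p = 0.075 and 0.0571), Col-0 9 h replicate 1 (adjusted p = 0.0548), tpt-2 18 h replicate 1 (adjusted p = 0.0607) or tpt-2 9 h replicates 1 and 2 (adjusted p = 0.0562 and 0.0654). AT1G76960, uncharacterized in RefSeq, and the NAC family gene NAC088 had interactions of 1.23 and 1.19 (limma adjusted p = 0.0413 and 0.0446). Their calls were lost, respectively, without Col-0 18 h replicates 1, 2 and 3 (adjusted p = 0.0513, 0.0978 and 0.0847), Col-0 9 h replicates 2 and 3 (adjusted p = 0.0865 and 0.0725), tpt-2 18 h replicates 1 and 2 (adjusted p = 0.099 and 0.0892) or tpt-2 9 h replicates 1, 2 and 3 (adjusted p = 0.0562, 0.0984 and 0.0672), and without Col-0 18 h replicates 1 and 3 (adjusted p = 0.107 and 0.0861), Col-0 9 h replicates 1 and 2 (adjusted p = 0.0692 and 0.0947), tpt-2 18 h replicates 1, 2 and 3 (adjusted p = 0.0665, 0.0945 and 0.0636) or tpt-2 9 h replicates 1, 2 and 3 (adjusted p = 0.0512, 0.114 and 0.0654).

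Genes lower in tpt-2 after 18 h alone were led by MES6, a methyl esterase family gene, and GSTF5, a phi class glutathione S-transferase gene. MES6 (chromosome 2, 10026992 to 10028814, minus strand) was at 0.457, 0.812 and 0.664 FPKM in Col-0 and 0.790, 1.05 and 1.21 FPKM in tpt-2 after 9 h. After 18 h it was at 7.26, 5.61 and 3.04 FPKM in Col-0 and 0.816, 0.325 and 0.650 FPKM in tpt-2. It rose in Col-0 by 1.88 on the log2 scale (adjusted p = 0.000163), its change in tpt-2 was -0.34 (adjusted p = 0.336), and the interaction was -2.23 (SE 0.34, limma adjusted p = 0.00655). GSTF5 was at 0.888, 0.459 and 1.88 FPKM in Col-0 and 0.447, 0.159 and 0.345 FPKM in tpt-2 after 9 h. It was already lower in every tpt-2 library then, although that difference did not pass the test (log2 -0.61, limma adjusted p = 0.0957). The 18 h levels were 31.1, 26.6 and 27.9 FPKM in Col-0 and 2.59, 3.62 and 4.24 FPKM in tpt-2. It rose in both genotypes and more in Col-0, with an interaction of -2.13 (SE 0.31, limma adjusted p = 0.00561). With its lowest library at 2 fragments, the call depended on how low values were treated: the adjusted p was 0.123 with a pseudocount of 0.1 and 0.25 with limma-voom on fragments recovered from the FPKM. The promoters of the leading genes of both directions are shown for comparison and held no match to the motifs.
ATSDI1 (chr5:19807854-19808103, minus strand): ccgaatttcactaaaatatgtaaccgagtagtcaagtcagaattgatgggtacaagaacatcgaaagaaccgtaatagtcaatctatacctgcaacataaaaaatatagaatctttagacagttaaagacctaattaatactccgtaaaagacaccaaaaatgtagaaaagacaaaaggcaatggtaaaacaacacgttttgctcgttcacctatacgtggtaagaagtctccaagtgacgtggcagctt
MES6 (chr2:10028815-10029064, minus strand): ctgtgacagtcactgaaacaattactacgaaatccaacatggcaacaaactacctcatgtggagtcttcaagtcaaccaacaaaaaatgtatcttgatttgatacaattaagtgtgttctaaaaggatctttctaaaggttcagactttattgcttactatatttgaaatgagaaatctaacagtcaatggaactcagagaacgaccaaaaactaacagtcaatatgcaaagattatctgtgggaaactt

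AT1G78820, a mannose-binding lectin gene, was at 35.8, 35.1 and 27.7 FPKM in Col-0 and 33.4, 43.1 and 49.7 FPKM in tpt-2 after 9 h. At 18 h the values were 45.1, 52.4 and 61.9 FPKM in Col-0 and 27.0, 25.3 and 29.0 FPKM in tpt-2. It rose in Col-0 and fell in tpt-2 between the times (adjusted p = 0.0067 and 0.0123), with an interaction of -1.27 (SE 0.21, limma adjusted p = 0.0101). TRX1, which encodes a cytosolic h-type thioredoxin, was at 3.33, 6.90 and 7.69 FPKM in Col-0 and 5.71, 4.67 and 3.56 FPKM in tpt-2 after 9 h. At 18 h it stood at 34.4, 29.998 and 25.9 FPKM in Col-0 and 9.48, 7.52 and 7.85 FPKM in tpt-2, so the Col-0 libraries at 18 h were the high ones. Its interaction of -1.48 (SE 0.33, limma adjusted p = 0.0286) was lost without Col-0 18 h replicates 1 and 2 (adjusted p = 0.0744 and 0.0704), tpt-2 18 h replicates 1 and 2 (adjusted p = 0.0554 and 0.0614) or tpt-2 9 h replicates 1 and 2 (adjusted p = 0.0649 and 0.0708). The precursor of MIR828, a microRNA known to act on MYB activators of anthocyanin genes, was at 6.52, 6.19 and 6.34 FPKM in Col-0 and 0.852, 2.45 and 0.815 FPKM in tpt-2 after 18 h, and under 1 FPKM in every library at 9 h. With 1 library at 0 fragments, its interaction of -1.86 (SE 0.39, limma adjusted p = 0.0246) was lost without Col-0 18 h replicates 1, 2 and 3 (adjusted p = 0.0647, 0.063 and 0.051), tpt-2 18 h replicate 1 (adjusted p = 0.0645) or tpt-2 9 h replicate 1 (adjusted p = 0.0562). That call was also lost with limma-voom (adjusted p = 0.118) and with a pseudocount of 0.1 (limma adjusted p = 0.115).

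Reversed effects were found in 40 genes, and 35 of the 40 kept the interaction call in each of the 12 fits with 1 library left out. Each of the 40 kept its signs at both times in these fits, which their choice by opposite called effects makes likely. After 9 h the Col-0 and tpt-2 libraries did not overlap in any of the 40, nor in 619 of the 621 genes of the 9 h alone class. Both classes hold genes whose 9 h effect passed the test in these libraries, so this separation adds no support. Among the 19 genes that went from higher to lower in tpt-2, STP14 had the largest interaction. It encodes a sugar transport protein known to carry galactose. STP14 (chromosome 1, 29008901 to 29012096, minus strand) was at 4.36, 2.56 and 3.88 FPKM in Col-0 and 11.8, 10.9 and 7.64 FPKM in tpt-2 after 9 h. By 18 h the values were 10.3, 10.7 and 10.097 FPKM in Col-0 and 3.88, 2.82 and 5.74 FPKM in tpt-2. The genotypes traded places: it rose by 1.33 in Col-0 and fell by 1.13 in tpt-2 on the log2 scale (adjusted p = 0.000816 and 0.00233), and the interaction was -2.46 (SE 0.30, limma adjusted p = 0.0024). Its promoter held an evening element, AAAATATCT, a motif known from clock-regulated genes, 76 bases before the start, shown in capitals.
STP14 (chr1:29012097-29012346, minus strand): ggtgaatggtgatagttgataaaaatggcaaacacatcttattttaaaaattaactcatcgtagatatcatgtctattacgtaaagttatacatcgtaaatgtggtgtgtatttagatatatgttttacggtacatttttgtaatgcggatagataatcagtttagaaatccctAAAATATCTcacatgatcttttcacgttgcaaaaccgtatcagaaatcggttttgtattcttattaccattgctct
The evening element was found in 3.09% of all promoters and in 1 of these 19 (5.26%), and the G-box, CACGTG, in 4 of the 19 (21.1%). The TATCCA element was found in 9 of the 19 (47.4%) and in 1 of the 21 genes that went from lower to higher (4.76%).

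IAA14, a repressor of auxin-responsive transcription, was at 6.75, 6.24 and 4.84 FPKM in Col-0 and 12.4, 10.3 and 7.39 FPKM in tpt-2 after 9 h. Later, at 18 h, it was at 17.61, 20.1 and 24.0 FPKM in Col-0 and 9.04, 11.6 and 12.7 FPKM in tpt-2. Its rise between the times was called in Col-0 (log2 1.63, adjusted p = 6.24e-05) and not in tpt-2 (log2 0.15, adjusted p = 0.618), with an interaction of -1.49 (SE 0.26, limma adjusted p = 0.012). ACYB-2, a cytochrome b561 family gene, was at 80.2, 61.6 and 70.5 FPKM in Col-0 and 125, 135 and 141 FPKM in tpt-2 after 9 h. At the later time it was at 103, 105 and 102 FPKM in Col-0 and 68.5, 73.1 and 83.4 FPKM in tpt-2, a full exchange of the higher genotype, with an interaction of -1.38 (SE 0.14, limma adjusted p = 0.00111). AT4G33660, a cysteine-rich TM module gene, had an effect of 0.91 after 9 h and -0.49 after 18 h, with an interaction of -1.39 (SE 0.20, limma adjusted p = 0.00451).

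Among the 21 genes that went from lower to higher in tpt-2, AGP15 had the highest level of those named. AGP15, an arabinogalactan protein gene of the cell surface, was at 875, 965 and 929 FPKM in Col-0 and 672, 558 and 618 FPKM in tpt-2 after 9 h. After 18 h it was at 274, 257 and 288 FPKM in Col-0 and 476, 477 and 414 FPKM in tpt-2. It fell in both genotypes, by 1.76 in Col-0 and by 0.43 in tpt-2 on the log2 scale (adjusted p = 2.07e-07 and 0.00322), so the larger fall in Col-0 put it below tpt-2, with an interaction of 1.32 (SE 0.12, limma adjusted p = 0.00101). PLC4, a phosphoinositide-specific phospholipase C gene, was at 6.06, 7.39 and 6.43 FPKM in Col-0 and 3.82, 3.84 and 3.96 FPKM in tpt-2 after 9 h. The 18 h levels were 3.88, 3.88 and 3.61 FPKM in Col-0 and 8.03, 7.40 and 4.70 FPKM in tpt-2. Its level fell in Col-0 and rose in tpt-2, with an interaction of 1.301 (SE 0.21, limma adjusted p = 0.00882). AT5G05365, annotated to heavy metal transport or detoxification, went from -0.75 to 0.64 in its genotype effect, with an interaction of 1.39 (SE 0.23, limma adjusted p = 0.00972).

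The largest interaction of the reversed class, 2.93, belonged to AT3G47342, a 78-base small nucleolar RNA gene on chromosome 3 (17445382 to 17445459, plus strand). It was at 9.03, 3.11 and 6.48 FPKM in Col-0 and 2.02, 0.897 and 0.975 FPKM in tpt-2 after 9 h. At 18 h the values were 1.498, 1.89 and 2.07 FPKM in Col-0 and 9.39, 5.99 and 3.99 FPKM in tpt-2, and its lowest library held 1 fragment. AT5G08860, another small nucleolar RNA gene, is identical to it over its full length, so its value is uncertain. The bases before its start are shown as those of the first gene of this class.
AT3G47342 (chr3:17445132-17445381, plus strand): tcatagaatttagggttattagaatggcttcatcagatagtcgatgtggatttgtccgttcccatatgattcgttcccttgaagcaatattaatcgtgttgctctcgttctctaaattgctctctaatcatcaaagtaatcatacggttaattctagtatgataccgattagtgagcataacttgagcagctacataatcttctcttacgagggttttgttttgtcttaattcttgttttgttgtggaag

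Late anthocyanin genes made up 9 of the 21 genes with an effect below 0 at each time that shrank on the log2 scale by 18 h. Of the 11 late anthocyanin genes tested, 9 were called in the interaction, 9 positive and 0 negative, against 4.81% of all nuclear genes, and their median interaction was 2.27 against 0.03. With 1 library left out, 8 to 10 of the 11 were called. The 9 were DFR and LDOX, which make the colored anthocyanidin, the glycosyltransferases UGT75C1 and UF3GT, the acyltransferases 5MAT, 3AT1, 3AT2 and SCPL10, and GSTF12, which is needed for vacuolar loading. The other two, UGT78D2 and BGLU10, had interactions of 0.92 (adjusted p = 0.104) and 0.07 (adjusted p = 0.921). DFR (chromosome 5, 17164093 to 17166032, minus strand) was at 177, 165 and 199.8 FPKM in Col-0 and 4.25, 8.24 and 11.3 FPKM in tpt-2 after 9 h. At 18 h it stood at 577, 610.1 and 654 FPKM in Col-0 and 254, 227 and 219 FPKM in tpt-2. It rose by 4.80 in tpt-2 and 1.76 in Col-0 on the log2 scale, so the effect went from -4.43 to -1.39, and the interaction was 3.04 (SE 0.32, limma adjusted p = 0.00119). The DFR promoter is shown for a G-box, CACGTG, 14 bases before the start, in capitals. Another G-box lay 9 bases after the start, outside the bases shown.
DFR (chr5:17166033-17166282, minus strand): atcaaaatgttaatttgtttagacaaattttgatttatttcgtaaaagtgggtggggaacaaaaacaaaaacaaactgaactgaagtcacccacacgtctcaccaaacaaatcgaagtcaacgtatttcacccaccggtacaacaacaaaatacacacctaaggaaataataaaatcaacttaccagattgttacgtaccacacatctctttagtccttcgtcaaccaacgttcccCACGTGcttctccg
The G-box was found in 5 of the 21 promoters of genes of this shape and direction (23.8%) and in 8.92% of all promoters, and the evening element in 4 of the 21 (19.0%) and in 3.09% of all.

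LDOX was at 184, 175 and 206 FPKM in Col-0 and 6.96, 10.7 and 13.4 FPKM in tpt-2 after 9 h. Later, at 18 h, it was at 577, 584 and 659.9 FPKM in Col-0 and 265, 226 and 210.3 FPKM in tpt-2, with an interaction of 2.72 (SE 0.24, limma adjusted p = 0.00101). Of the early flavonoid genes, which supply the backbone, 1 of 9 tested was called (11.1%, against 4.81% of all nuclear genes). That gene was F3'H, the flavonoid 3'-hydroxylase, at 41.2, 49.8 and 66.8 FPKM in Col-0 and 1.47, 1.38 and 4.34 FPKM in tpt-2 after 9 h and 371, 394 and 416 FPKM in Col-0 and 133, 129 and 99.2 FPKM in tpt-2 after 18 h, with an interaction of 2.35 (SE 0.38, limma adjusted p = 0.00848). Chalcone synthase (CHS) had an interaction of 1.38 with an adjusted p of 0.056, and F3H fell under the FPKM minimum. Of 17 anthocyanin regulators tested, MYB75 and TT8 were positive and CPC was negative, which is 17.65% called against 4.81%. TT8, a bHLH partner of MYB75, had an interaction of 1.25 (SE 0.25, limma adjusted p = 0.0204), lost without Col-0 18 h replicates 1 and 2 (adjusted p = 0.0548 and 0.0578) or tpt-2 18 h replicate 1 (adjusted p = 0.0539). CPC, a small MYB protein known to counter that complex, was at 23.58, 24.3 and 28.3 FPKM in Col-0 and 6.51, 8.26 and 5.61 FPKM in tpt-2 after 18 h. Its interaction of -1.21 (SE 0.28, limma adjusted p = 0.0334) was lost without Col-0 18 h replicates 1, 2 and 3 (adjusted p = 0.0693, 0.0774 and 0.0713), Col-0 9 h replicates 1 and 2 (adjusted p = 0.0566 and 0.0611), tpt-2 18 h replicate 1 (adjusted p = 0.0788) or tpt-2 9 h replicates 1 and 2 (adjusted p = 0.0681 and 0.0738).

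**Figure D4:**
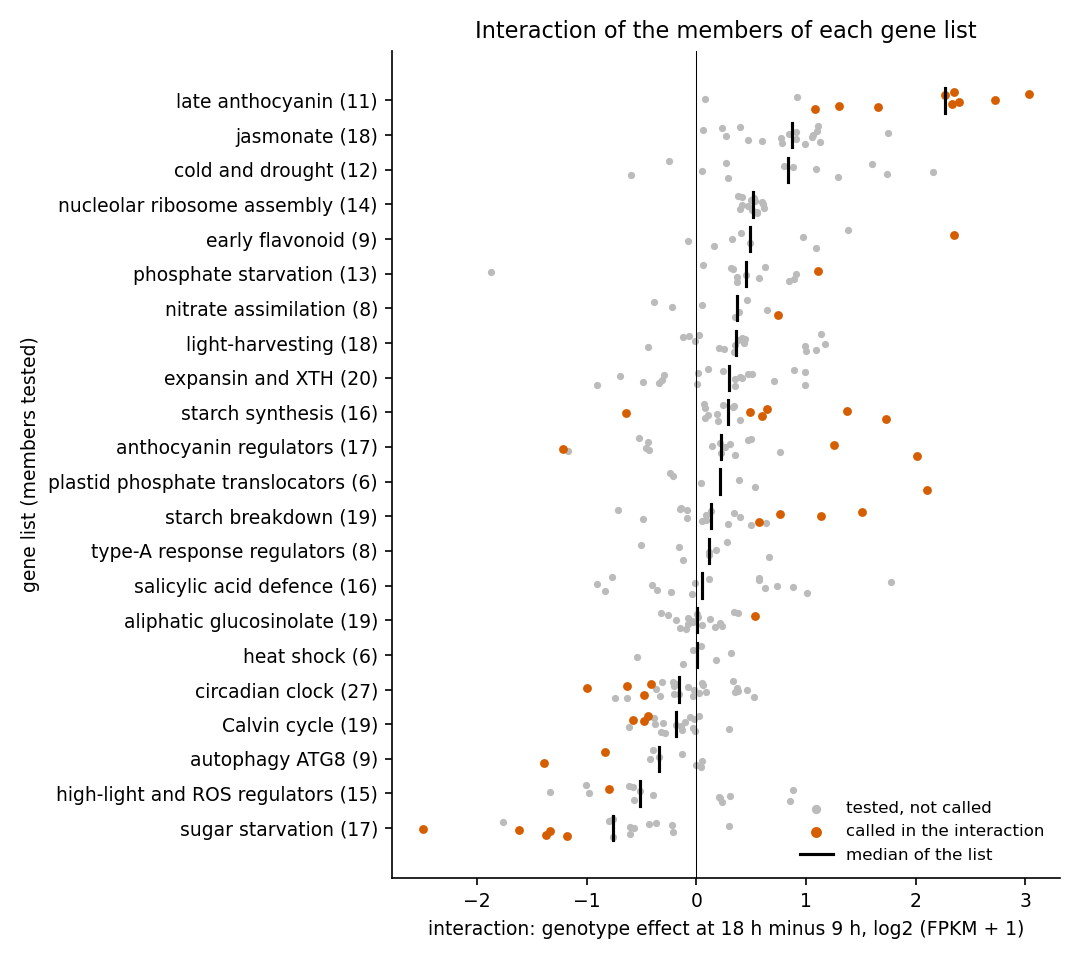
Interaction (log2 of FPKM + 1, x axis) of each member tested of 22 gene lists (y axis, members tested in parentheses), with called members in orange and the list's median as a black bar. Late anthocyanin genes have the highest median, 2.27, and sugar starvation genes the lowest, -0.76.

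Sugar starvation genes had interactions of the opposite sign. Of 17 tested, 0 were positive and 5 negative, against 2.37% of all nuclear genes with a negative call. The median interaction was -0.76 against 0.03, and 16 of the 17 had a negative sign. The count fell to 1 without Col-0 18 h replicate 1 or 2 or tpt-2 9 h replicate 1 or 2, and to 2 without Col-0 18 h replicate 3, Col-0 9 h replicate 2 or tpt-2 18 h replicate 1. The 5 were DRM1 and DRMH1, both dormancy-associated, and the trehalose phosphate synthase family genes TPS8, TPS9 and TPS11. TPS11 was at 1.51, 1.92 and 1.94 FPKM in Col-0 and 6.58, 8.22 and 5.71 FPKM in tpt-2 after 9 h. The 18 h levels were 2.22, 3.11 and 2.41 FPKM in Col-0 and 1.69, 3.57 and 1.77 FPKM in tpt-2. The groups were apart after 9 h and overlapped after 18 h, with an interaction of -1.62 (SE 0.29, limma adjusted p = 0.0128), kept in each of the 12 fits with 1 library left out. TPS8 was at 1.78, 0.984 and 2.52 FPKM in Col-0 and 11.4, 12.5 and 8.66 FPKM in tpt-2 after 9 h and stayed higher in tpt-2 after 18 h (log2 0.80, adjusted p = 0.0308). Its interaction of -1.33 (SE 0.30, limma adjusted p = 0.031) was lost without Col-0 18 h replicates 1, 2 and 3 (adjusted p = 0.0776, 0.0546 and 0.0628), Col-0 9 h replicate 2 (adjusted p = 0.0513), tpt-2 18 h replicate 1 (adjusted p = 0.0721) or tpt-2 9 h replicates 1 and 2 (adjusted p = 0.0681 and 0.0846). DRM1 had effects of 2.35 after 9 h and 0.98 after 18 h and an interaction of -1.38 (SE 0.33, limma adjusted p = 0.0382), lost without Col-0 18 h replicates 1, 2 and 3 (adjusted p = 0.0937, 0.0934 and 0.0517), Col-0 9 h replicates 2 and 3 (adjusted p = 0.062 and 0.064), tpt-2 18 h replicate 1 (adjusted p = 0.0881) or tpt-2 9 h replicates 1 and 2 (adjusted p = 0.0767 and 0.0851). Of the 9 ATG8 genes, whose products coat autophagosomes, ATG8E and ATG8F were called, both negative (22.2%, against 2.37% of all), with interactions of -1.39 and -0.83 (adjusted p = 0.0421 and 0.0414). ATG8E lost its call without Col-0 18 h replicates 1, 2 and 3 (adjusted p = 0.0907, 0.0994 and 0.0729), Col-0 9 h replicates 2 and 3 (adjusted p = 0.0592 and 0.0525), tpt-2 18 h replicates 1 and 2 (adjusted p = 0.106 and 0.0819) or tpt-2 9 h replicates 1 and 2 (adjusted p = 0.0946 and 0.109), and ATG8F lost it without Col-0 18 h replicates 1, 2 and 3 (adjusted p = 0.0975, 0.0965 and 0.0645), tpt-2 18 h replicates 1, 2 and 3 (adjusted p = 0.103, 0.0539 and 0.051) or tpt-2 9 h replicates 1, 2 and 3 (adjusted p = 0.0729, 0.103 and 0.0597).

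Starch genes were called on both sides of starch turnover. Of 16 starch synthesis genes tested, 5 were positive and 1 negative (37.5% called, against 4.81% of all nuclear genes), with a median interaction of 0.29 against 0.03. Calls fell to 2 without Col-0 18 h replicate 2 or 3 or tpt-2 18 h replicate 1, and to 3 without Col-0 18 h replicate 1, Col-0 9 h replicate 2 or tpt-2 9 h replicate 2. APL3, a large subunit of ADP-glucose pyrophosphorylase, was at 42.1, 59.2 and 43.3 FPKM in Col-0 and 12.04, 13.7 and 14.0 FPKM in tpt-2 after 9 h. At 18 h the values were 48.0, 59.4 and 47.1 FPKM in Col-0 and 41.7, 37.3 and 37.1 FPKM in tpt-2. APL3 was still lower in every tpt-2 library after 18 h, although that difference did not pass the test (log2 -0.40, limma adjusted p = 0.0683). It rose in tpt-2 by 1.48 on the log2 scale (adjusted p = 1.03e-05) and its change in Col-0 was 0.10 (adjusted p = 0.617), with an interaction of 1.38 (SE 0.18, limma adjusted p = 0.00341). GBSS1, the granule-bound starch synthase, was at 10.3, 23.2 and 20.1 FPKM in Col-0 and 2.41, 1.74 and 1.03 FPKM in tpt-2 after 9 h. Later, at 18 h, it was at 57.8, 77.2 and 60.1 FPKM in Col-0 and 39.3, 28.7 and 27.1 FPKM in tpt-2. Its interaction of 1.73 (SE 0.38, limma adjusted p = 0.0286) was lost without Col-0 18 h replicates 1, 2 and 3 (adjusted p = 0.0732, 0.0546 and 0.0595), Col-0 9 h replicates 2 and 3 (adjusted p = 0.057 and 0.0501), tpt-2 18 h replicate 1 (adjusted p = 0.0712) or tpt-2 9 h replicate 2 (adjusted p = 0.0671). The other positive calls were SBE2.1 and SBE2.2, branching enzymes, and PGI1, the plastid phosphoglucose isomerase, and the negative one was the starch synthase SS4 (interaction -0.64). SBE2.2 lost its call without Col-0 18 h replicates 2 and 3 (adjusted p = 0.0606 and 0.0515) or tpt-2 18 h replicate 1 (adjusted p = 0.063).

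Of 19 starch breakdown genes tested, 4 were positive and 0 negative (21.1% called, against 4.81% of all), with a median interaction of 0.13. Calls numbered 2 without any 1 of the Col-0 18 h replicates, tpt-2 18 h replicate 1 or tpt-2 9 h replicate 1 or 2. BAM3, a chloroplast beta-amylase, was at 427, 569 and 365 FPKM in Col-0 and 166, 164 and 224 FPKM in tpt-2 after 9 h. By 18 h the values were 415, 466 and 384 FPKM in Col-0 and 540.5, 547 and 402 FPKM in tpt-2, where the groups overlapped, and the interaction was 1.51 (SE 0.25, limma adjusted p = 0.0091). A gene on the opposite strand overlaps 25.2% of its length. SEX4, a phosphatase that releases phosphate from starch, was at 191, 197 and 166 FPKM in Col-0 and 77.1, 66.6 and 74.1 FPKM in tpt-2 after 9 h. The 18 h levels were 77.8, 78.2 and 77.0 FPKM in Col-0 and 70.0, 59.1 and 74.1 FPKM in tpt-2. Here the change lay in Col-0, which fell by 1.24 on the log2 scale (adjusted p = 3.81e-06) to near the level tpt-2 already had, with an interaction of 1.13 (SE 0.13, limma adjusted p = 0.00184). SEX4 remained lower in every tpt-2 library after 18 h, without passing the test (log2 -0.20, limma adjusted p = 0.183). ISA3, a debranching isoamylase, had effects of -1.25 after 9 h and -0.48 after 18 h, and its interaction of 0.77 (SE 0.17, limma adjusted p = 0.0296) was lost without Col-0 18 h replicates 1, 2 and 3 (adjusted p = 0.0732, 0.0571 and 0.0626), tpt-2 18 h replicate 1 (adjusted p = 0.0701) or tpt-2 9 h replicates 1 and 2 (adjusted p = 0.0588 and 0.0752). GPT2, the glucose 6-phosphate/phosphate translocator of the plastid, was the single call among 6 translocators tested (16.7%). It was at 21.9, 50.7 and 53.1 FPKM in Col-0 and 2.15, 1.38 and 2.16 FPKM in tpt-2 after 9 h. At 18 h the values were 34.1, 49.3 and 43.8 FPKM in Col-0 and 18.5, 10.3 and 9.57 FPKM in tpt-2. Its interaction of 2.11 (SE 0.45, limma adjusted p = 0.0245) was lost without Col-0 18 h replicates 1 and 2 (adjusted p = 0.0658 and 0.0523), Col-0 9 h replicate 2 (adjusted p = 0.0541), tpt-2 18 h replicate 1 (adjusted p = 0.0586) or tpt-2 9 h replicate 2 (adjusted p = 0.0674).

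Other lists held few calls, to be read against the 4.81% of all nuclear genes that were called. Of 19 Calvin cycle genes, 3 were negative (CP12-2, TKL1 and RPE) with interactions between -0.58 and -0.44, and 17 of the 19 had a negative sign. The count was 0 without Col-0 18 h replicate 1 or 2, Col-0 9 h replicate 3, tpt-2 18 h replicate 1 or 2 or tpt-2 9 h replicate 1 or 2, and 1 without Col-0 18 h replicate 3 or Col-0 9 h replicate 2. The 3 calls are 15.8% of the Calvin cycle list. Of 27 clock genes, 4 were negative (14.8%), and between 1 and 2 were called without any library other than tpt-2 9 h replicate 3. RVE2, a MYB-like gene of the CCA1 family, was at 36.7, 37.0 and 38.5 FPKM in Col-0 and 55.2, 55.3 and 62.1 FPKM in tpt-2 after 9 h. Later, at 18 h, it was at 155, 156 and 164 FPKM in Col-0 and 136, 173 and 159 FPKM in tpt-2, with an interaction of -0.64 (SE 0.12, limma adjusted p = 0.0167). ELF3, an evening complex component, had an interaction of -0.48 (SE 0.11, limma adjusted p = 0.0289), lost without Col-0 18 h replicates 1 and 3 (adjusted p = 0.0764 and 0.0608), Col-0 9 h replicate 2 (adjusted p = 0.057), tpt-2 18 h replicates 1 and 2 (adjusted p = 0.0721 and 0.0511) or tpt-2 9 h replicates 1 and 2 (adjusted p = 0.0649 and 0.0772). RVE1, another gene of the CCA1 family, had one of -0.998 (SE 0.25, limma adjusted p = 0.0417), and at neither time was its genotype effect called. The RVE1 call was lost without Col-0 18 h replicates 1, 2 and 3 (adjusted p = 0.0812, 0.0926 and 0.0905), Col-0 9 h replicates 1, 2 and 3 (adjusted p = 0.0503, 0.0813 and 0.0647), tpt-2 18 h replicates 1, 2 and 3 (adjusted p = 0.0682, 0.0785 and 0.0642) or tpt-2 9 h replicates 1 and 2 (adjusted p = 0.082 and 0.0967). PAP17, an acid phosphatase gene, was the single call of 13 phosphate starvation genes (7.69%), with an effect of -1.42 after 9 h and -0.30 after 18 h and an interaction of 1.11 (SE 0.18, limma adjusted p = 0.00884). In each of the nitrate assimilation, aliphatic glucosinolate and high-light lists 1 member was called, NIA2 (nitrate reductase), MYB29 (a glucosinolate activator) and DREB2A (a drought and heat response factor). They make up 12.5%, 5.26% and 6.67% of the members tested, and the last 2 shares are near that of all genes. NIA2 lost its call without Col-0 18 h replicate 2 (adjusted p = 0.0505) or tpt-2 9 h replicate 2 (adjusted p = 0.0506), and DREB2A without Col-0 18 h replicates 1, 2 and 3 (adjusted p = 0.0732, 0.0967 and 0.0528), Col-0 9 h replicates 1 and 2 (adjusted p = 0.0699 and 0.0666), tpt-2 18 h replicates 1, 2 and 3 (adjusted p = 0.0703, 0.0591 and 0.0541) or tpt-2 9 h replicates 2 and 3 (adjusted p = 0.103 and 0.0644). MYB29 reversed, from -0.28 to 0.25, and its call was lost without Col-0 18 h replicate 2 (adjusted p = 0.0571).

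For 8 lists 0 members were called. They were light-harvesting (4 of 18 with an unadjusted p under 0.05 in limma), heat shock (0 of 6), expansin and XTH (6 of 20), type-A response regulators (2 of 8), salicylic acid defence (1 of 16), jasmonate (0 of 18), cold and drought (1 of 12) and nucleolar ribosome assembly (11 of 14). Of all 17470 nuclear genes tested, 3773 had an unadjusted p under 0.05, and the light-harvesting and type-A counts are near that share. The jasmonate and nucleolar members all had a positive sign, with median interactions of 0.87 and 0.52, and the jasmonate median was 0.34 without Col-0 9 h replicate 3. However, the lowest adjusted p was 0.237 among jasmonate genes and 0.0635 among nucleolar genes.

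The gene whose effect was larger after 18 h, AT5G54062, RefSeq's egg cell-secreted-like protein, rested on few fragments. It was at 0.463, 0.766 and 1.37 FPKM in Col-0 and listed at 0 in the 3 tpt-2 libraries after 9 h, and at 13.2, 12.3 and 10.9 FPKM in Col-0 and 2.31, 1.93 and 2.85 FPKM in tpt-2 after 18 h. It lies next to UF3GT on the opposite strand. AT5G53742 is 90.8% identical over 41.2% of its transcript, so its value is uncertain. Its interaction of -1.10 (SE 0.25, limma adjusted p = 0.0315) was lost without Col-0 18 h replicates 1, 2 and 3 (adjusted p = 0.0886, 0.085 and 0.0513), Col-0 9 h replicates 1 and 2 (adjusted p = 0.0507 and 0.062), tpt-2 18 h replicates 1 and 2 (adjusted p = 0.0721 and 0.0697) or tpt-2 9 h replicates 1 and 2 (adjusted p = 0.0609 and 0.0727), and it turned positive with a pseudocount of 0.1 (0.84, adjusted p = 0.353) and with limma-voom (1.88, adjusted p = 0.208). The cause was not tested.

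**Figure D5:**
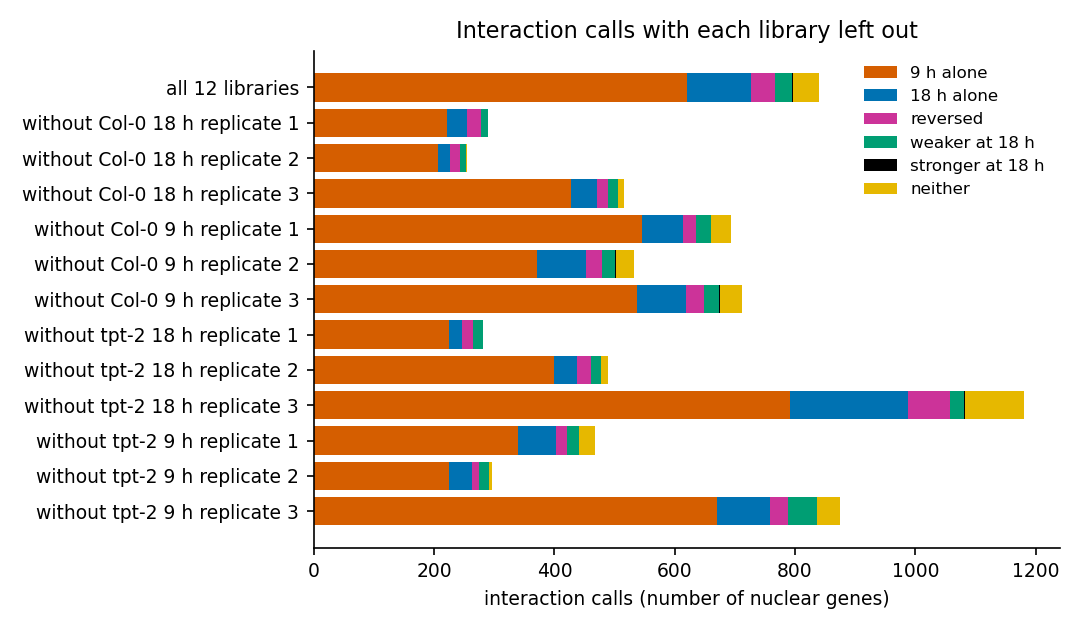
Number of nuclear genes called in the interaction (x axis) with 12 libraries and with each single library left out (y axis), divided by shape. Counts run from 254 without Col-0 18 h replicate 2 to 1181 without tpt-2 18 h replicate 3, and the 9 h alone class is the largest in each fit.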

How the data were processed

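The authors deposited FPKM values, 1 for each gene in each library, and the 12 value columns matched the 12 sample titles. Per the labels' protocols, mRNA was selected with poly-T beads and dUTP marked the second cDNA strand. The submitters' processing notes name TAIR10, CASAVA, HISAT2 2.0.5, featureCounts 1.5.0-p3 and DESeq2 1.20.0, with no role or order, and the annotation and strand setting of the counting are not given in the sources used here. FPKM depend on the total of each library, so a few abundant genes can shift the others.

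FPKM are not counts, so log2(FPKM + 1) was fitted with limma 3.58.1 (R 4.3.3; eBayes with a mean-variance trend) on the 17585 genes whose mean reached 1 FPKM, 115 of them organelle-encoded. The 4 groups were 1 factor. P-values are two-sided and adjusted by the Benjamini-Hochberg method over these genes, jointly for the genotype effects of both times and jointly for the time effects of both genotypes, and a call is an adjusted p under 0.05. Fold changes on this scale understate the change of low genes. Steps between low FPKM, with annotated transcript lengths, gave each library's depth, which made 98.1% to 98.4% of values worth 1 to 20 fragments whole within 0.05. The fit was tested on simulated data with the same dispersion for every gene, in which false calls exceeded the nominal share. These false calls were not counted by number of fragments. Of the 840 calls, 11 rest on a mean under 20 fragments per library and 86 on one under 100.

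Genes, gene lists, classes and motifs were chosen with earlier results of these data known. The genes named had their highest group mean at 5 FPKM or more and no overlap between genotypes at each time with an effect, and were the 5 with the largest interaction in each direction for 9 h alone and 18 h alone, 4 for reversed and 3 for weaker or stronger, up to 3 called members of each list, and TPT. TPS9, SS4, SBE2.1, PGI1, UF3GT, GSTF12, 5MAT, 3AT1, 3AT2 and SCPL10 are named as further called list members, chosen after their values were seen. So were the promoters of DRMH1, AT5G24490, AT5G02160, STP14 and DFR. RefSeq's TAIR10.1 annotation held all 32548 nuclear identifiers, and its coordinates, starts and sequence are used. Promoter windows ran from 250 bases before to 50 bases after the start, and the motifs searched on both strands were the G-box CACGTG, the evening element AAAATATCT, TATCCA, the AC element ACCTACC and the heat shock element GAANNTTC. Transcripts were compared with blastn 2.17.0 for copies at 90% identity. Python 3.11.15, numpy 2.4.6 and pandas 2.3.3 did the rest. Alternatives covered the pseudocount, the FPKM minimum, scaling, limma-voom on recovered fragments, the sorting of shapes, a replicate block and each library left out. Raw fragment counts were not analysed here.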

Additional observations from a re-analysis of the deposited data

Results flagged for a closer look

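The genotype effect differed between 9 h and 18 h, by a test of the difference itself (limma, Benjamini-Hochberg adjusted p under 0.05), in 840 nuclear genes. The named genes among them are listed with the effect after 18 h minus that after 9 h. In genes higher in tpt-2 after 9 h alone, the interaction on the log2 scale was -2.71 for AT5G56100, -2.57 for AT1G23390, -2.50 for DRMH1, -2.27 for AT5G24490, -1.999 for AT5G02160, -1.62 for TPS11, -1.39 for ATG8E, -0.83 for ATG8F, -0.58 for CP12-2, -0.48 for TKL1, -0.44 for RPE, -0.79 for DREB2A, -0.64 for RVE2 and -0.48 for ELF3. In genes lower in tpt-2 after 9 h alone it was 2.87 for AT1G80130, 2.79 for TBL26, 2.02 for MYB75, 1.58 for AT3G16330, 1.55 for AT4G07815, 1.38 for APL3, 0.64 for SBE2.2, 1.51 for BAM3, 1.13 for SEX4, 1.11 for PAP17 and 0.75 for NIA2. Where tpt-2 was higher after 18 h alone, the values were 1.89 for ATSDI1, 1.54 for AT1G22690, 1.23 for AT1G76960, 1.22 for AT1G04040 and 1.19 for NAC088. Where tpt-2 was lower after 18 h alone, they were -2.23 for MES6, -2.13 for GSTF5, -1.86 for MIR828, -1.48 for TRX1, -1.27 for AT1G78820 and -1.21 for CPC. Of the genes that went from higher to lower, the interaction was -2.46 for STP14, -1.49 for IAA14, -1.39 for AT4G33660 and -1.38 for ACYB-2.

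Of those that went from lower to higher, it was 2.93 for AT3G47342, 1.39 for AT5G05365, 1.32 for AGP15, 1.301 for PLC4 and 0.53 for MYB29. For an effect that stayed above 0 and was smaller after 18 h, it was -1.51 for AT5G54585, -1.38 for DRM1 and -1.33 for TPS8. The AT5G54585 call was lost without Col-0 18 h replicate 2, tpt-2 18 h replicate 1 or tpt-2 9 h replicate 1 or 2 (limma adjusted p = 0.0571, 0.0545, 0.0525 and 0.0595). For an effect that stayed below 0 and was smaller after 18 h, it was 3.04 for DFR, 2.72 for LDOX, 2.39 for UGT75C1, 2.35 for F3'H, 1.25 for TT8, 1.73 for GBSS1, 0.77 for ISA3 and 2.11 for GPT2. The effect that was larger after 18 h gave -1.10 for AT5G54062. With no call at either time, it was -0.998 for RVE1.

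Organelle-encoded genes, which are not among the genes described above, made up 1.49% of FPKM on average in tpt-2 after 9 h and 0.506% after 18 h, above the 0.0679% and 0.0596% of the Col-0 libraries. Their part in the results was not tested beyond rescaling to nuclear genes.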

How the results depend on the processing

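Leaving out 1 library gave 254 to 1181 interaction calls, 124 to 668 positive and 130 to 513 negative. By shape the ranges were 206 to 791 for 9 h alone, 21 to 196 for 18 h alone, 12 to 70 for reversed, 10 to 47 for weaker at 18 h, 0 to 2 for stronger at 18 h and 0 to 99 for neither. A minimum interaction of 1 on the log2 scale left 192 calls, 70 positive and 122 negative. With the p-values of each time adjusted separately, 61 genes were 18 h alone, 18 reversed and 19 weaker. Sorted by size, 121 were 9 h alone, 13 were 18 h alone and 15 reversed. Genes stronger at 18 h numbered 0 with limma-voom, with a minimum of 5 FPKM and with a pseudocount of 0.1, and 3 with quantile normalization and with median-ratio scaling. Quantile normalization gave 19 weaker genes, and no filter on low values gave 28 called at neither time. Counts of all interaction calls were 910 with limma-voom, 911 with a minimum of 5 FPKM, 806 with a pseudocount of 0.1, 761 under median-ratio scaling, 831 after rescaling to nuclear genes and 644 without the filter.

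The correlation of deviations between same-numbered libraries ranged from -0.36 to 0.17 over 18 pairs. Correlations of libraries with different numbers were computed but not kept for comparison, so these values alone cannot tell whether the replicate numbers pair the samples. With the replicate block there were 393 calls, 389 of them shared with the 840, of which 191 were positive and 202 negative. Under the block 297 were 9 h alone, 41 were 18 h alone, 0 stronger and 5 called at neither time.

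AT5G54062 turned to 1.88 with limma-voom and 0.84 with a pseudocount of 0.1. Some list medians changed sign. The high-light list went from -0.51 to 0.21 with a minimum of 5 FPKM. The heat shock list, at 0.00696, was at -0.18 with limma-voom, -0.0296 with a minimum of 5 FPKM, -0.0161 under median-ratio scaling, -0.10 with a pseudocount of 0.1, and -0.0021 under quantile normalization. The aliphatic glucosinolate list, at 0.0101, was at -0.00491 under median-ratio scaling, -0.0041 after rescaling to nuclear genes and -0.0435 under quantile normalization. With 1 library left out, medians ranged from -0.50 to 0.38 for heat shock, -0.0303 to 0.0353 for aliphatic glucosinolate, -0.10 to 0.52 for salicylic acid defence and -0.0119 to 0.40 for expansin and XTH, which was at 0.30 with all libraries. The cause was not tested. Over all alternatives, single named genes kept their direction and their side of the threshold 918 times and fell short of it 250 times. Depth limits genes with few fragments.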

Other observations

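Every word of at least 4 letters in the RefSeq descriptions was counted for interaction calls after the values were seen, which gave 195 words carried by at least 8 calls out of 8740 words. From these, 3 groups are described, with no test. Genes whose description names mitochondria were called in 26 of 337 cases (7.72%, against 4.81% of all nuclear genes), 23 positive and 3 negative. Genes whose description names chloroplasts, plastids or thylakoids were called in 69 of 580 cases (11.9%), 18 positive and 51 negative. Genes whose description names starch were called in 9 of 36 cases (25%), 8 positive and 1 negative. The median interaction was 0.13, -0.12 and 0.13 in these groups, against 0.03 over all nuclear genes, and each group was picked for its share of calls.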
